A study of Mus musculus with 135 samples.

Results

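Mfap1a, Mfap1b, Spint1 and Gm14085 are 4 mouse genes of chromosome 2, and their transcripts were followed oocyte by oocyte in 94 single ovulated oocytes. The count tables hold 53715 genes, of which 14418 reached 1 CPM (counts per 1000000 of the library total) in at least 2 sets of oocytes, and all 4 genes were among these. The genes were chosen from earlier results of these same data, because Mfap1b and Spint1 had stood out between old Tet1 knockout (Tet1KO) and old wild-type (WT) oocytes or between old and young WT oocytes. Their levels are therefore given as a description, with no test of those contrasts.

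All animals were of strain C57BL6/129, and the labels name no other allele, promoter or agent. Oocytes came from young females (2 to 4 months) or old females (10 to 12 months) that were WT, Tet1KO or Tet2KO. TET1 and TET2 are enzymes that oxidise 5-methylcytosine in DNA. Oocytes whose titles share an identifier form a set, and groups were compared over sets. No label ties a set to an animal, so any p-value measures only the spread between sets, which may be technical. The plots give a numbered set by its number alone. Young WT held sets T148, T211 and T231 with 8 oocytes each and set Young_WT__246 with 14. Young Tet1KO held set T146 with 8 oocytes and set Young_Tet1-/-_201 with 7, and young Tet2KO held T213 and T214 with 8 each. Old WT held set Old_WT_365 with 5 oocytes and set Old_WT_247 with 7, old Tet1KO held set Old_Tet1-/-_209 with 5 oocytes and set Old_Tet1-/-_315 with 1, and old Tet2KO held set S161 with 7. Sets with a number and no letter before it stand in one count table and sets with a T or S name in the other, so the naming series and the table cannot be told apart.

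Mfap1a and Mfap1b are neighbouring copies of one gene, and despite the name (microfibrillar-associated protein) their product is a splicing factor that joins the spliceosome at the B complex stage, before catalysis. Spint1 encodes HAI-1, a membrane-bound Kunitz-type inhibitor of the serine proteases that activate hepatocyte growth factor, best known from epithelia. Gm14085 is listed by RefSeq as Slc28a2b, a member of the family of sodium-coupled nucleoside transporters. A fully grown oocyte is nearly silent in transcription, so its RNA at ovulation is largely a store made while it grew.

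The coding sequences of the paralogs were identical over all 1320 bases in the GENCODE M21 transcripts, the stop codon included. The first 120 coding bases are shown once, because they belong to both genes: chr2:121502829-121506541 (mm10, minus strand, 2 exons) in Mfap1a and chr2:121470276-121473912 in Mfap1b.
Mfap1a and Mfap1b, coding bases 1 to 120: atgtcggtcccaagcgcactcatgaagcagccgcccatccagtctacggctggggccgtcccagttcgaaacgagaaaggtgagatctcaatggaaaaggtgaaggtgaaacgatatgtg
The 2 mRNAs differ in their untranslated ends, 124 and 2754 bases long in Mfap1a and 155 and 1887 in Mfap1b. Of the 100-base windows of the Mfap1b mRNA (3362 bases), 56.7% also occur in another gene's transcript, 1851 of them in Mfap1a, and of those of Mfap1a (4198 bases) 50.4% do. Reads from these stretches cannot be assigned to one paralog. The counts included multi-mapped reads but kept only fragments of mapping quality 30 or more. That the 2 genes were told apart by their unshared stretches is inferred from this limit and was not checked. Gm14085 shares 21.5% of its 100-base windows, all of them with the transporter gene Slc28a2, and Spint1 shares 0.

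Sequence around the starts is shown because the paralogs, with one protein, differed in level. The aligned 30 bases below lie between the starts of Mfap1a and Wdr76 (chr2:121506672-121506701, minus strand) and across the start of Mfap1b (chr2:121474042-121474071, minus strand), where all but the first bases belong to its transcript. The start windows differ more than this stretch does: laid over each other in the same register without gaps, they overlap by 297 bases, of which 120 differ. Capitals mark the 2 positions that differ, T17C and C30T counted from the 5′ end, with the Mfap1a base first.
Mfap1a: ctctgttatgtacttcTggttcctctaccC
Mfap1b: ctctgttatgtacttcCggttcctctaccT
With the base of Mfap1b the stretch holds ACTTCCGG, which is CCGGAAGT on the other strand, the core bound by many ETS transcription factors. This motif was chosen after the sequences were seen. In the RefSeq windows of GRCm38.p6 (250 bases before to 50 after a start, both strands searched), Mfap1b held 2 matches, Mfap1a 1, Spint1 1 and Gm14085 0. Of the genes described below with them, Wdr76 held 1 and Rmdn3, Ivd, Capn3, Pla2g4e and Cachd1 held 0. Of all 32851 such windows, 3.89% held at least 1 match and 0.356% at least 2. The 150 bases before the starts of the other genes are chr2:119237210-119237359 for Spint1 and chr2:122484791-122484940 for Gm14085 (plus strand), with the motif in capitals.
Spint1: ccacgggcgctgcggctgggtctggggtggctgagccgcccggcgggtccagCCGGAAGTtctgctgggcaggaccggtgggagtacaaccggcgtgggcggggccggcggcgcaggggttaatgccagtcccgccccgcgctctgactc
Gm14085: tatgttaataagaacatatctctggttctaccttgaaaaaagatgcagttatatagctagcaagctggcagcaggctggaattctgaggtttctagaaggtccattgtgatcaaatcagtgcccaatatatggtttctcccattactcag
A match says only that these letters are present.

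On chromosome 2 of mm10 the genes run, by rising coordinate, Spint1 (119237362 to 119249527, plus strand), Mfap1b (121460235 to 121474067, minus strand), Mfap1a (121491911 to 121506665, minus strand) and Gm14085 (122484941 to 122528040, plus strand). Mfap1b and Mfap1a lie 17.8 kb apart, Spint1 2.21 Mb before Mfap1b, and Gm14085 0.978 Mb after Mfap1a. No other gene model of the count tables overlaps any of them.

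Mfap1b took either of 2 well-separated levels, and every oocyte of a set took the same one. It was low, at 3.98 to 12.0 CPM, in all 27 oocytes of sets Old_Tet1-/-_209, Old_Tet1-/-_315, Young_Tet1-/-_201 and Young_WT__246, and high, at 36.99 to 97.7 CPM, in the other 67. The low sets were both old Tet1KO sets, 1 of the 2 young Tet1KO sets and 1 of the 4 young WT sets, so neither genotype nor age as labelled divided the low from the high oocytes. All 4 belong to the numbered series, but the numbered sets Old_WT_365 and Old_WT_247 of old WT were high.

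In young WT, Mfap1b stood at 45.1 CPM in set T148 (oocytes 37.6 to 50.3, median 48.0), 46.8 in T231 (39.4 to 55.9, median 48.6), 77.02 in T211 (65.4 to 91.4, median 76.7) and 8.51 in set Young_WT__246 (6.00 to 11.4, median 8.74). Set Young_WT__246 lay below the lowest oocyte of each other young WT set. In young Tet1KO it stood at 50.4 CPM in T146 (36.99 to 61.6, median 48.5) and 7.79 in set Young_Tet1-/-_201 (4.39 to 12.0, median 7.42), again with no overlap. In young Tet2KO the sets overlapped, at 68.5 CPM in T213 (58.8 to 95.2, median 67.6) and 69.1 in T214 (59.5 to 79.4, median 69.8).

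In old WT, Mfap1b stood at 47.2 CPM in set Old_WT_365 (43.7 to 50.6, median 46.4) and 88.1 in set Old_WT_247 (71.8 to 97.7, median 86.2), and these 2 sets did not overlap either. Old Tet1KO held 5.31 CPM in set Old_Tet1-/-_209 (3.98 to 7.81, median 4.92) and 7.15 in the single oocyte of set Old_Tet1-/-_315. The old Tet2KO set S161 stood at 64.2 CPM (50.7 to 80.6, median 64.6). All 6 old Tet1KO oocytes were thus below all 12 old WT oocytes, for Mfap1b and for the other 3 genes as well. Over all genes tested, 0.548% had every old Tet1KO oocyte below every old WT oocyte, and since this contrast chose the genes, nothing is read from the count.

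**Figure D1:**
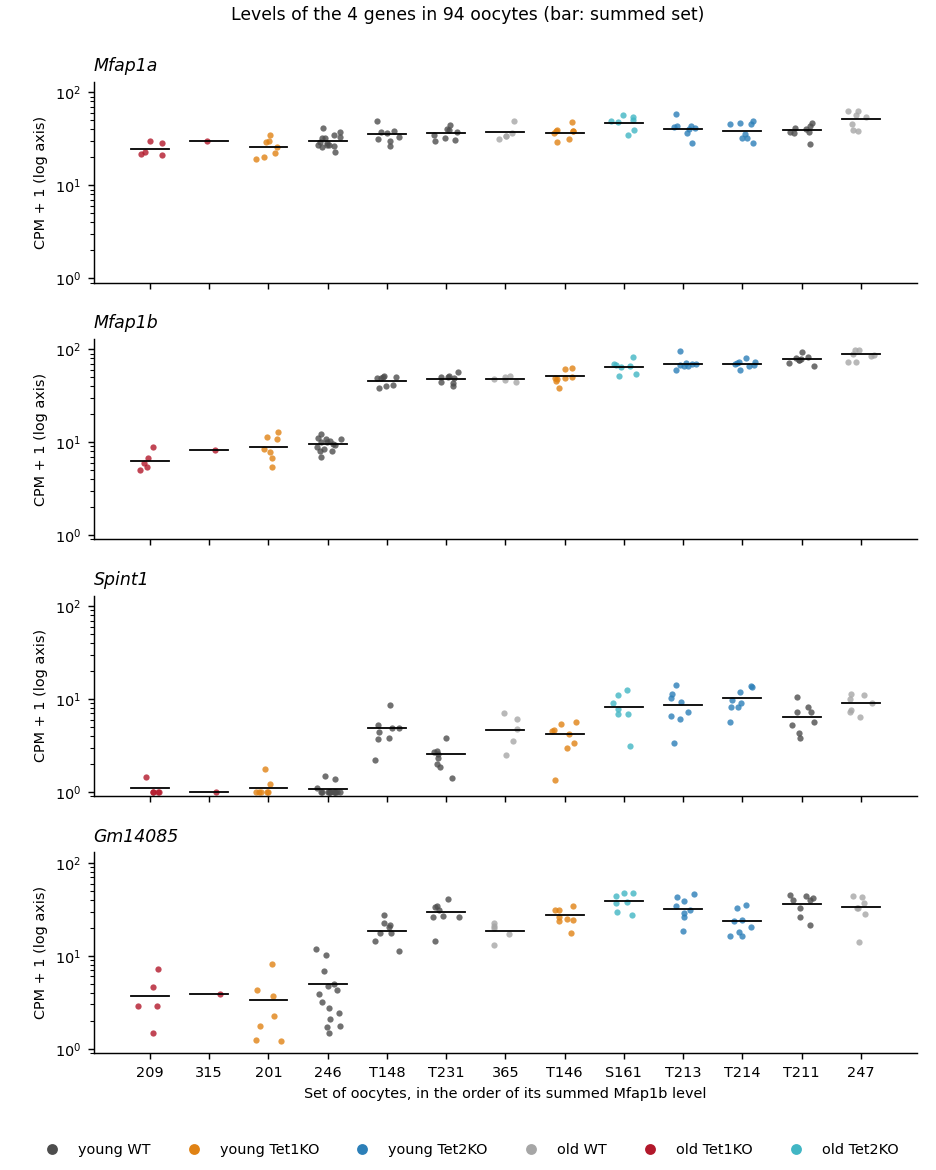
Levels of the 4 genes (CPM + 1, log axis) in each of 94 oocytes, by set in the order of summed Mfap1b, with a bar at the level of the summed set and colour for the group. Mfap1b leaves an empty band between 11.98 and 36.99 CPM, Spint1 is at or near 0 in the 4 sets on the left, and Mfap1a shows no band.

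Ordered by summed Mfap1b, the sets ran Old_Tet1-/-_209, Old_Tet1-/-_315, Young_Tet1-/-_201, Young_WT__246, T148, T231, Old_WT_365, T146, S161, T213, T214, T211 and Old_WT_247. Neighbours in that order overlapped in their oocytes at each of the 12 steps but 1, the step from Young_WT__246 to T148. Between sets lay 97.6% of the variance of Mfap1b over oocytes (log2 of CPM + 1), against a median of 35.1% over all genes tested. For Spint1 the share was 88.2%, for Gm14085 86.2% and for Mfap1a 57.8%. The contrasts that chose the genes were between groups of these sets, so high shares are in part fixed by the choice.

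Spint1, the protease inhibitor, was nearly absent from the same 4 sets. Their oocytes held 6 counts in all in set Young_WT__246 (0.0806 CPM, 95% exact binomial interval 0.0296 to 0.176), 4 in set Young_Tet1-/-_201 (0.112 CPM, 0.0304 to 0.286), 2 in set Old_Tet1-/-_209 (0.0948 CPM, 0.0115 to 0.342) and 0 in set Old_Tet1-/-_315, with an interval up to 0.447 CPM. Spint1 was at 0 in 21 of these 27 oocytes, which at their depths allows 0.353 to 0.809 CPM in each by the limit of 3 counts. Every oocyte of the other 9 sets held at least 1 count. These intervals and limits cover counting error only.

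Where it was present, Spint1 was a scarce transcript. In young WT it stood at 1.56 CPM in T231 (oocytes 0.402 to 2.78, median 1.44), 3.93 in T148 (1.19 to 7.68, median 3.61) and 5.41 in T211 (2.81 to 9.41, median 5.44). In T146 of young Tet1KO it stood at 3.19 CPM (0.339 to 4.65, median 3.395). The young Tet2KO sets were higher, at 7.71 CPM in T213 (2.36 to 13.2, median 7.24) and 9.20 in T214 (4.68 to 12.7, median 8.41). Old WT held 3.67 CPM in set Old_WT_365 (1.49 to 5.99, median 3.74) and 8.10 in set Old_WT_247 (5.48 to 10.2, median 8.01), and old Tet2KO 7.22 in S161 (2.16 to 11.6, median 6.77). At these counts the sets overlapped their neighbours throughout, and oocyte T1465, at 0.339 CPM, and T2313, at 0.402, lay inside the range of the 4 nearly empty sets.

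Gm14085, the transporter relative, was low in the same 4 sets but not absent. It stood at 2.35 CPM in set Young_Tet1-/-_201 (0.201 to 7.17, median 1.25), 2.70 in set Old_Tet1-/-_209 (0.464 to 6.25, median 1.88), 2.91 in set Old_Tet1-/-_315 and 3.95 in set Young_WT__246 (0.467 to 10.8, median 2.54). Set sums elsewhere ran from 17.7 CPM in set Old_WT_365 (12.0 to 21.3, median 18.98) and 17.7 in T148 (10.1 to 26.3, median 18.2) to 34.8 in T211 (20.4 to 43.7, median 38.6) and 37.5 in S161 (26.5 to 46.6, median 37.2). Between them stood T214 at 22.9, T146 at 26.8, T231 at 28.99, T213 at 31.3 and Old_WT_247 at 32.2 CPM. Only 1 oocyte of a low set, Young_WT__246_4 at 10.8 CPM, reached the lowest of the others, T1487 at 10.1.

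Slc28a2, whose transcript Gm14085 resembles, was scarce in every set, at 0.124 to 0.766 CPM, well below the difference in Gm14085 between the sets. Within the low sets Gm14085 spread more than Mfap1b: its variance over oocytes was 15.5 times that of counting alone in set Young_WT__246 and 12.4 times in set Young_Tet1-/-_201, where Mfap1b had 1.34 and 4.45.

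Mfap1a, the other splicing factor copy, was found in every oocyte and had no 2 states. Its set sums were 23.7 CPM in Old_Tet1-/-_209 (20.2 to 29.2, median 22.01), 24.9 in Young_Tet1-/-_201 (18.3 to 33.7, median 24.6), 28.8 in Young_WT__246 (21.99 to 40.4, median 27.9) and 29.3 in Old_Tet1-/-_315, the 4 lowest sets. The other 9 ran from 34.5 in T148 (25.6 to 48.7, median 34.1) to 46.5 in S161 (34.1 to 55.9, median 48.0) and 50.4 in Old_WT_247 (37.1 to 62.1, median 52.8). Neighbouring sets overlapped at every step, and the widest gap that left 5 oocytes on each side was 0.15 on the log2 scale, against 1.55 for Mfap1b.

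Since the proteins are encoded identically, the summed level of the pair and the share of Mfap1b in it are also given, per kilobase of exon. In the 4 low sets Mfap1b made up a median of 19.98% (Old_Tet1-/-_209), 23.3% (Old_Tet1-/-_315), 30.3% (Young_Tet1-/-_201) and 26.998% (Young_WT__246) of the pair, with no oocyte above 36.2%. In the other sets the medians ran from 61.7% (T146) to 71.7% (T211), with no oocyte below 55.5%. The pair together stood at a median of 9.56 CPM per kilobase in set Young_WT__246 against 20.8, 23.5 and 32.1 in T148, T231 and T211, the other young WT sets. In old females it stood at 6.55 in set Old_Tet1-/-_209 and 9.11 in set Old_Tet1-/-_315 against 22.1 and 38.3 in the WT sets Old_WT_365 and Old_WT_247. Mfap1a was therefore not higher where Mfap1b was low. Per kilobase of the windows that no other gene holds, the medians were 22.4% to 33.4% in the low sets and 65.04% to 74.5% in the others.

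**Figure D2:**
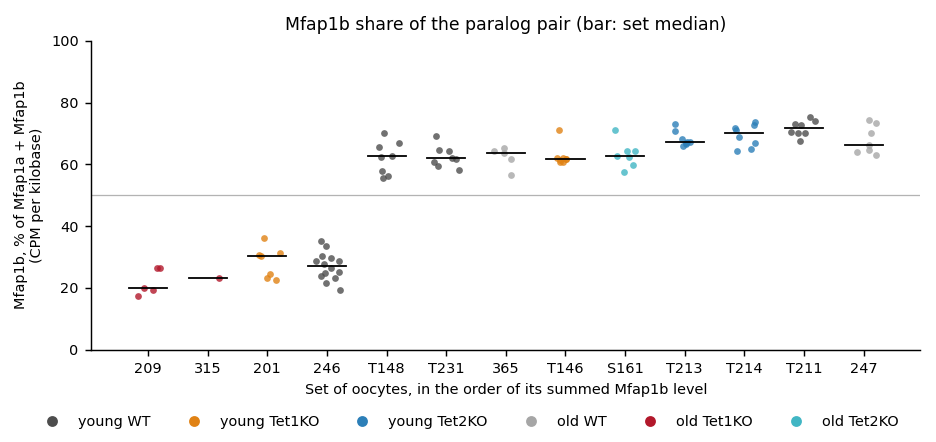
Mfap1b as a percent of Mfap1a + Mfap1b (CPM per kilobase of exon) in each oocyte, by set in the order of summed Mfap1b, with a bar at the set median and colour for the group. All oocytes of sets Old_Tet1-/-_209, Old_Tet1-/-_315, Young_Tet1-/-_201 and Young_WT__246 lie at 36.2% or less and all others at 55.5% or more.

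Most oocytes were in the same high or low state for Mfap1b, Spint1 and Gm14085. The genes were chosen on contrasts that include 3 of the 4 low sets, so this is in part fixed by the choice and is given as a description. A boundary was set for each gene at the middle of the widest gap in the sorted levels. It fell at 21.2 CPM for Mfap1b, with 11.98 and 36.99 CPM as the nearest values on each side, at 0.617 for Spint1 (0.481 and 0.765) and at 4.81 for Gm14085 (3.95 and 5.83). By these boundaries 65 oocytes were high in all 3 genes, 21 low in all 3 and 8 mixed. Mfap1b and Spint1 were in the same state in 91 of 94 oocytes, Mfap1b and Gm14085 in 89, and Spint1 and Gm14085 in 86. The counts with Spint1 depended on its boundary: midway between its lowest and highest level they were 78 of 94 with Mfap1b and 75 with Gm14085, with 51 oocytes high in Spint1 in place of 66.

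In each of the 8 mixed oocytes it was Spint1 or Gm14085 that parted from the other pair. In 5 of them, Young_WT__246_2, Young_WT__246_4, Young_WT__246_11, Young_Tet1-/-_201_8 and Old_Tet1-/-_209_6, Gm14085 stood at 5.83 to 10.8 CPM while Mfap1b and Spint1 were low. In T1465 and T2313 Spint1 alone was low, on 2 counts and 1 count, and in Young_Tet1-/-_201_3 Spint1 alone was high, on 3 counts. No oocyte lay within 0.5 log2 of the Mfap1b boundary, while 10 lay so near that of Spint1 and 8 that of Gm14085. For Mfap1a the same rule put the boundary at 23.3 CPM with 40 oocytes within 0.5 log2 of it, so its 87 high and 7 low oocytes are not 2 states. All 7 low ones were in sets Young_WT__246, Young_Tet1-/-_201 and Old_Tet1-/-_209.

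**Figure D3:**
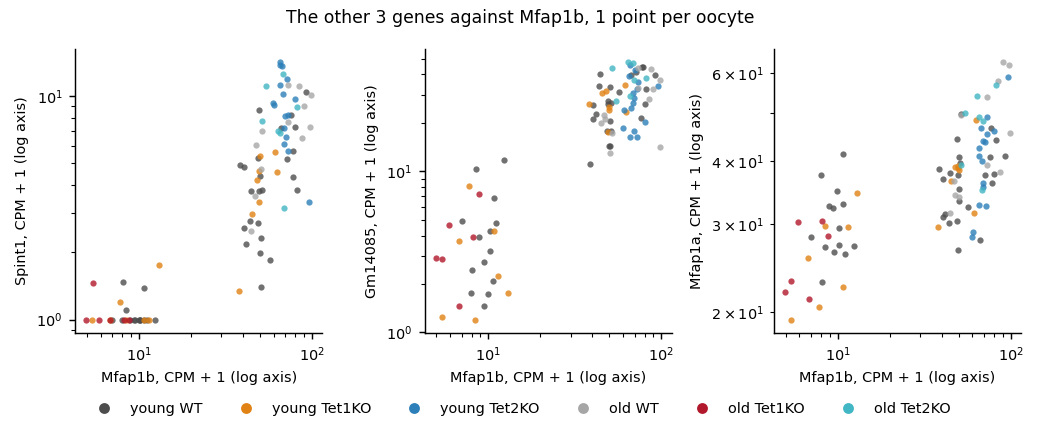
Spint1, Gm14085 and Mfap1a against Mfap1b (CPM + 1, log axes), 1 point per oocyte, coloured by group. Spint1 and Gm14085 form 2 clouds with Mfap1b, 27 oocytes at 11.98 CPM or less and 67 at 36.99 or more, and Mfap1a ranges from 18.3 to 62.1 CPM across both.

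Over the 94 oocytes, which share sets and tables, Pearson's r of log2(CPM + 1) was 0.90 between Mfap1b and Gm14085 (Spearman's rho 0.76), 0.88 between Mfap1b and Spint1 (rho 0.82) and 0.72 between Mfap1b and Mfap1a (rho 0.74). It was 0.78 between Spint1 and Gm14085 (rho 0.67), 0.64 between Mfap1a and Spint1 (rho 0.62) and 0.59 between Mfap1a and Gm14085 (rho 0.55). These values rest on the 2 clouds. Among the 27 oocytes low in Mfap1b, r of Mfap1b was 0.09 with Spint1 and 0.16 with Gm14085, and among the 67 high ones 0.57 and 0.38, or -0.0053 and -0.0193 there with set means removed. Within the 39 numbered oocytes r of Mfap1b was 0.95 with Spint1, 0.86 with Gm14085 and 0.81 with Mfap1a. Within the 55 T and S oocytes, all of them high in Mfap1b, it was 0.54, 0.37 and 0.45.

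Within sets the likeness of these 3 genes was near 0. Once each set's mean was removed, r fell to 0.02 between Mfap1b and Spint1, 0.11 between Mfap1b and Gm14085 and -0.01 between Spint1 and Gm14085. The paralogs kept more, at 0.43, and their r was above 0 in 9 of the 10 sets with at least 6 oocytes (median 0.45, from -0.01 in T148 to 0.87 in T213). This was not particular to the pair, since Ing3 on chromosome 6 stood at 0.41 with Mfap1a when set means were removed. The paralogs also share long stretches of mRNA, and the part of shared reads in their r was not tested. Mfap1b and Spint1 were above 0 in 4 of 10 sets and Mfap1b and Gm14085 in 7 of 10. Scarce counts limit what the Spint1 values can show.

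Among all genes tested, those most like the 4 over the 94 oocytes included genes of the same stretch of chromosome 2. Among the closest to Mfap1b were Rmdn3 (r = 0.91), which tethers mitochondria to the endoplasmic reticulum and lies near Spint1, and Cachd1 (0.91) on chromosome 4. Among the closest to Spint1 were Mfap1b (0.88) and Rmdn3 (0.85), and closest to Gm14085 were Mfap1b (0.90), Cachd1 (0.88) and Rmdn3 (0.85). Closest to Mfap1a were Mfap1b (0.72) and Ing3 (0.72) on chromosome 6, a subunit of the NuA4 histone acetyltransferase. Part of Rmdn3 overlaps another gene model and was counted without strand, so its counts may include reads of that model.

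Most unlike Mfap1b were Pla2g4e (r = -0.85), a cytosolic phospholipase A2 gene that lies between Spint1 and Mfap1b, Ythdc1 (-0.84) on chromosome 5, a nuclear reader of methylated adenosine in RNA, and Gm27325 (-0.81) on chromosome 18, a short gene model. With set means removed these 3 stood at -0.25, 0.07 and 0.11, while Rmdn3 stood at 0.05 and Cachd1 at -0.12.

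The segment from 1 Mb before Spint1 to 1 Mb after Gm14085 spans 5.29 Mb and holds 80 tested genes, 76 of them besides the 4. Of these 76, 32 (42.1%) had an absolute r with Mfap1b of 0.5 or more, 24 positive and 8 negative. Over all genes tested the share was 15.6%, and by chromosome it ran from 11.3% on chromosome 7 to 19.2% on chromosome 2. At 0.7 or more it was 10 of 76 (13.2%) against 1.69% of all genes. Along chromosome 2 the share was 41.8% within 2.5 Mb of the start of Mfap1b (28 of 67 genes), 37.9% from 2.5 to 5 Mb (11 of 29), 25.8% from 5 to 10 Mb (25 of 97), 12.99% from 10 to 20 Mb (10 of 77), 17.5% from 20 to 40 Mb (38 of 217) and 15.6% beyond (91 of 584). With set means removed no segment gene reached 0.5, but over all genes only 1 of 14417 (0.00694%) did. This loss is therefore not particular to the segment.

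**Figure D4:**
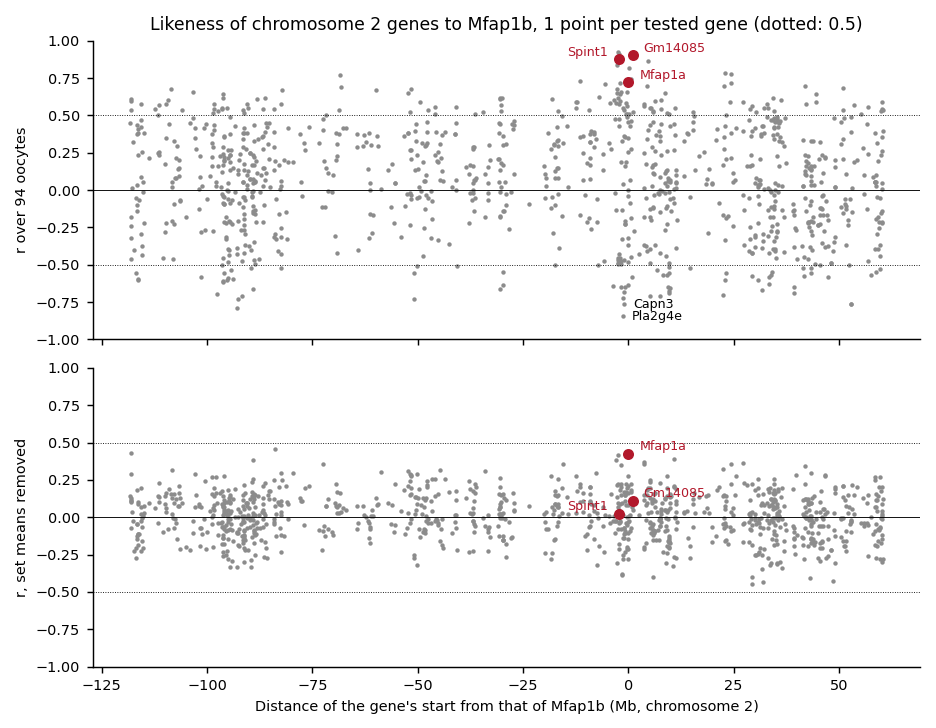
Pearson's r with Mfap1b over 94 oocytes (upper) and with set means removed (lower) against the distance of each tested chromosome 2 gene from Mfap1b (Mb), with Spint1, Gm14085 and Mfap1a in red. The upper points within 5 Mb include Rmdn3 at 0.91 and Pla2g4e at -0.85. Below no point of the segment reaches 0.5 in size, and over all genes only 1 of 14417 does.

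Most of the segment genes with the largest absolute r varied among the high sets as well. Taking the sets by summed Mfap1b, set sums of Mfap1b were 5.31 to 8.51 CPM in places 1 to 4, 45.1 to 50.4 in places 5 to 8 (T148, T231, Old_WT_365 and T146) and 64.2 to 88.1 in places 9 to 13 (S161, T213, T214, T211 and Old_WT_247). This division was made after the values were seen, and the oocytes of the upper 2 runs overlap for Mfap1b (36.99 to 61.6 and 50.7 to 97.7 CPM). Set sums of Spint1 fell in the same runs without overlap, at 0 to 0.112, 1.56 to 3.93 and 5.41 to 9.20 CPM, and so did those of Mfap1a, at 23.7 to 29.3, 34.5 to 36.3 and 37.9 to 50.4. Those of Gm14085 did not divide the upper runs (17.7 to 28.99 and 22.9 to 37.5). Single oocytes of the upper 2 runs overlapped for Spint1 (0.339 to 7.68 and 2.16 to 13.2 CPM). They did so for Mfap1a too (25.6 to 48.7 and 26.8 to 62.1). How many of all genes tested fall in these runs without overlap was not counted. The segment genes below were picked for a large absolute r with Mfap1b, which also orders the runs. Their fit to the runs is therefore in part fixed by the choice and is given as a description.

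Capn3, the calpain protease known from muscle, ran the other way (r = -0.77) and divided the upper runs in single oocytes. It stood at 2.04 to 9.13 CPM in all 38 oocytes of places 9 to 13, at 13.4 to 33.3 in the 29 of places 5 to 8 and at 19.9 to 46.0 in the 27 of places 1 to 4. Pla2g4e ran from 22.7 to 168.6 CPM in the oocytes of places 1 to 4 through 6.42 to 32.4 to 2.16 to 14.1. Vps39 (-0.72), a subunit of the HOPS complex of lysosomal fusion, had set sums of 133 to 190, 79.6 to 118 and 53.8 to 83.7 CPM, of which the upper 2 runs overlap.

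The set sums of Rmdn3 and Ivd, likewise picked by their r with Mfap1b, also fell in the runs without overlap. Rmdn3 stood at 1.94 to 3.55, 10.8 to 19.4 and 24.6 to 36.2 CPM. Ivd (r = 0.84), an enzyme of leucine breakdown, stood at 4.48 to 11.03, 15.1 to 23.9 and 24.96 to 32.6. Single oocytes of Rmdn3 overlapped in the upper 2 runs (6.86 to 24.4 and 7.69 to 42.7 CPM). Those of Ivd did too (10.3 to 32.2 and 11.4 to 46.3). Wdr76 (0.82), whose start lies 58 bases from that of Mfap1a on the opposite strand, stood at 43.5 to 74.4 CPM in places 1 to 4 and at 87.4 to 148.3 and 122 to 141 in the upper runs, which it did not divide. The short gene model Gm47314 (0.75) overlapped between runs in its oocytes.

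**Figure D5:**
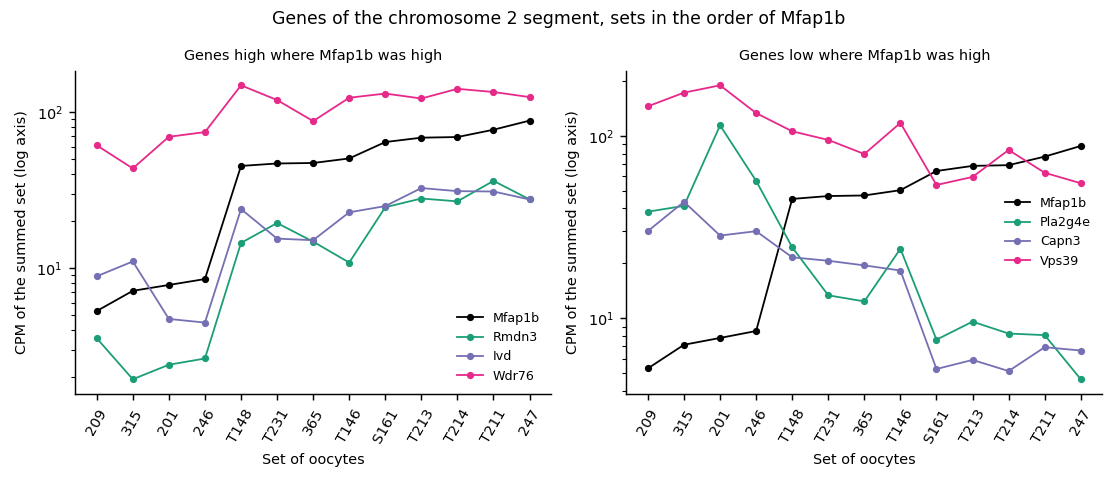
Summed level (CPM, log axis) of Mfap1b and 6 genes of the segment in each set, sets in the order of Mfap1b, with genes of positive r on the left and of negative r on the right. Between T146 and S161 Capn3 drops from 18.3 to 5.26 CPM while Mfap1b goes from 50.4 to 64.2.

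Cachd1 and Dph6, which lie outside the segment, parted from Mfap1b in single sets. Within it Gm47314 did so too, at 4.19 CPM in set Young_WT__246 and 3.55 in T148. Cachd1 stood at 8.48 CPM in set Old_Tet1-/-_315, at 0 in all 5 oocytes of set Old_Tet1-/-_209 and at 0.202 in set Young_WT__246, although Mfap1b was low in all of them. Dph6, a diphthamide synthesis gene of the same chromosome that starts at 114516416 (r = 0.62), stood at 472 CPM in set Young_WT__246 and 8.86 in set Old_Tet1-/-_209, both low in Mfap1b. In oocyte Young_Tet1-/-_201_8 Dph6 stood at 365.3 CPM and Cachd1 at 9.63, while Mfap1b (6.76) and Spint1 (0.205) were low as in the rest of its set.

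The comparisons that did not choose the genes ask whether any of the 4 differs in young Tet1KO, young Tet2KO or old Tet2KO oocytes. They are not independent of that choice, because their reference, young WT or old WT, also stood in the contrasts that chose the 4 genes. None passed the edgeR quasi-likelihood test (Benjamini-Hochberg over 14418 genes, threshold 0.05), and none was called in any of 112 fits of these genes under alternatives. Against young WT, which both young knockouts share, 0.0208% of genes were called in Tet1KO and 0.0139% in Tet2KO, and 0.0139% were called in old Tet2KO against old WT. With so few calls at this spread, a gene that missed the threshold is not shown to be equal.

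In young Tet1KO, Mfap1b stood at 29.1 ± 30.1 CPM (SD over the 2 sets) where young WT had 44.4 ± 28.04 (n = 4), a log2 change of -0.10 (95% interval -0.85 to 0.65, edgeR adjusted p = 0.983). Spint1 stood at 1.65 ± 2.18 against 2.75 ± 2.38 CPM (log2 change -0.0046, interval -2.05 to 2.04), Gm14085 at 14.6 ± 17.3 against 21.4 ± 13.6 (-0.24, -1.06 to 0.58) and Mfap1a at 30.4 ± 7.89 against 34.3 ± 3.99 (-0.04, -0.56 to 0.47). The naming series is a term of this fit, and each group held 1 low set, which was its only numbered set. The term therefore takes up the low state, so the SDs are wide while the fitted changes are small. Without the term the log2 change was -0.55 (SE 0.75) for Mfap1b and -0.64 (SE 1.19) for Spint1. It was then -0.49 (SE 0.84) for Gm14085 and -0.12 (SE 0.24) for Mfap1a.

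In young Tet2KO the largest change was that of Spint1, at 8.46 ± 1.05 CPM (SD over the 2 sets) where young WT had 2.75 ± 2.38 (n = 4). The log2 change was 1.22 (SE 0.48, 95% interval 0.03 to 2.41), with an unadjusted p of 0.0294 and an edgeR adjusted p of 0.822. Over all genes tested, 5.79% had an unadjusted p under 0.05 in this edgeR comparison. Both Tet2KO sets lay above all 4 WT sets in their sums, but their oocytes overlapped those of T148, T211 and T231. The share of all genes tested with such an order of sets was not counted, so nothing is read from it. Mfap1b stood at 68.8 ± 0.447 against 44.4 ± 28.04 CPM (log2 change 0.26, 95% interval -0.48 to 1.0002), Mfap1a at 38.8 ± 1.33 against 34.3 ± 3.99 (0.05, -0.47 to 0.57) and Gm14085 at 27.1 ± 5.95 against 21.4 ± 13.6 (-0.11, -0.94 to 0.72). The naming series is a term of this fit too. Both Tet2KO sets are T sets, and Young_WT__246, the low set, is the only numbered one of young WT. The term therefore takes up the low level of Young_WT__246, which the plain WT means include. Without the term the log2 change was 0.60 (SE 0.72) for Mfap1b, 1.61 (SE 1.11) for Spint1 and 0.14 (SE 0.24) for Mfap1a. Gm14085 changed sign without it (log2 change 0.32).

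In old Tet2KO, with 1 set that is assumed to vary like the others, Mfap1b stood at 64.2 CPM against 67.6 ± 28.9 in old WT (n = 2 sets; log2 change -0.08, interval -2.55 to 2.39). Spint1 stood at 7.22 against 5.88 ± 3.13 CPM (0.29, -3.51 to 4.08), Gm14085 at 37.5 against 24.9 ± 10.3 (0.59, -2.11 to 3.28) and Mfap1a at 46.5 against 43.3 ± 9.97 (0.10, -0.71 to 0.90). These intervals are too wide to show whether the levels differed, and here group and naming series coincide.

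Of 22 genes of the spliceosome B complex, which MFAP1 joins, all were tested and none rose or fell in the 3 comparisons by edgeR, while 2, 3 and 1 had an unadjusted p under 0.05. Over all genes tested that share was 4.79%, 5.79% and 1.85%. The median log2 change was -0.14 in young Tet1KO, -0.01 in young Tet2KO and -0.05 in old Tet2KO, beside 0.0030, -0.01 and -0.01 over all genes. By r with Mfap1b, 2 of the 22 reached 0.5 in size, a smaller share than the 15.6% of all genes. They were Prpf38a (0.52), which binds MFAP1 in that complex, and Prpf8 (-0.60), at its catalytic centre, which was named after its value was seen, and the median was -0.01. Smu1, another B complex protein, was the most abundant per length at a median of 345 CPM per kilobase over the sets, and Ik, its partner, stood at 21.002.

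Of 12 genes of the protease system that HAI-1 restrains, 4 were tested (Spint2, Hgf, Prss8 and Epcam) and edgeR called none, with 0, 1 and 0 at an unadjusted p under 0.05, numbers too small to set against the shares over all genes. The median log2 change was 0.13, 0.45 and -0.06. Spint2, the related inhibitor HAI-2, stood at 83.5 to 222 CPM over the sets and had an r of -0.39 with Mfap1b. Genes of proteases that HAI-1 inhibits were scarce: St14 (matriptase) reached at most 1.34 CPM in a set, and Hgfac held 1 count in all 94 oocytes. Prss8 (prostasin), named after its values were seen, stood at 3.08 to 7.51 CPM.

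Of 7 nucleoside transporter genes, 5 were tested and edgeR called none, with 0 at an unadjusted p under 0.05 in each comparison. The median log2 change was 0.49, 0.07 and 0.34. The equilibrative transporter gene Slc29a1 had an r of -0.71 with Mfap1b, at 0.769 to 10.3 CPM over the sets, and the concentrative Slc28a3 stood at 0.242 to 1.23.

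In purified E13.5 primordial germ cells, the precursors of oocytes and sperm, all values come from the authors' deposited table, with 1 WT and 1 Tet2KO library, each from pooled embryos, and no replicate. In that deposited table Mfap1b stood at 17.1 FPKM in WT and 19.6 in Tet2KO (authors' false discovery rate 0.0473), Mfap1a at 8.66 and 7.89 (0.245) and Spint1 at 3.55 and 4.57 (0.0519). FPKM is scaled to length, so Mfap1b was above Mfap1a in both libraries of the authors' deposited table, as in the 9 oocyte sets high in Mfap1b. St14, which encodes a target of HAI-1, stood at 9.94 and 12.7 FPKM in the authors' deposited table. Slc28a2 is listed at its floor of 0.01 in both libraries, and Gm14085 was not analysed here in these cells.

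Total counts per oocyte ran from 2354503 to 12472307 (median 3985321). Tet1 held 2 counts in 15 young Tet1KO and 1 in 6 old Tet1KO oocytes, against 495 in 38 young WT and 82 in 12 old WT oocytes. Tet2 held 84 counts in 16 young and 28 in 7 old Tet2KO oocytes, against 327 in 38 young WT and 237 in 12 old WT oocytes. Tet2KO oocytes overlapped WT ones, at 0.223 to 3.83 against 0.358 to 5.95 CPM in young females. In old females they stood at 0 to 4.93 against 1.44 to 6.95 CPM. The Tet2 counts thus do not mark single Tet2KO oocytes off, and the part deleted is not given in the labels. The 10 oocyte markers summed to 7143 to 25948 CPM over all oocytes. The 10 cumulus and granulosa markers summed to 0 to 8.597 CPM, with Foxl2 on 1 count in all. Of 8 epithelial markers, Krt19 was at 0 in every oocyte while Esrp1 and Cldn4 were in all, and the sum ran from 94.3 to 242 CPM in young WT and from 115 to 186 in old Tet1KO. The 6 macrophage markers summed to 1191 CPM in oocyte S1616 and to at most 34.1 in any other; S1616 held Mfap1b at 68.4, Spint1 at 2.16 and Gm14085 at 36.1 CPM. Without S1616, left out after its values were seen, set S161 summed to 63.5 CPM for Mfap1b, 8.09 CPM for Spint1, 37.7 CPM for Gm14085 and 46.4 CPM for Mfap1a. Their part in the levels of the 4 genes was not tested.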

How the data were processed

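RNA of single metaphase II oocytes was sequenced in 6 groups, and of E13.5 germ cells in 2 libraries. The authors deposited the oocyte data as raw counts per gene, made per the file headers with featureCounts 1.6.2 and GENCODE M17 on fragments of mapping quality 30 or more, with multi-mapped and multi-overlapping reads counted and no strand. HISAT2, SAMtools and mm10 are named in the submitters' processing notes. The authors deposited the germ cell values as FPKM with a log2 ratio and a false discovery rate. Labels describe 135 samples. Of these, 39 match no column and 39 count columns match no label, and none of them was used. No 2 oocytes of a set had identical counts (342 pairs).

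Counts were summed per set and tested with edgeR 4.0.16 (R 4.3.3; TMM, quasi-likelihood, 1 mean per group, naming series as a term except in old Tet2KO) over genes at 1 CPM or more in at least 2 sets, with Benjamini-Hochberg adjustment and a threshold of 0.05. DESeq2 1.42.0, limma 3.58.1, other scaling, no filter and leaving out sets were alternatives. The test was tested on simulated data, which had less spread between sets than these data and no set-wide switches. States, correlations (Python 3.11.15, pseudocount 1) and sequence searches are descriptions. Depth limits Spint1 most. Genes named are the 4, the 3 most like each, the 3 least like Mfap1b, 8 of the segment, Tet1, Tet2, Dph6 and members of 3 lists. One item that this rule names is not reported here. The 4 genes and the lists were chosen with earlier results of these data known.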

Additional observations from a re-analysis of the deposited data

Results flagged for a closer look

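Dixon's test was run on 44 groups of oocytes within a set and 4 groups of sets (young WT), and 4 of these 48, all of oocytes, held a value far from the others. Chance flags about 1 group in 20 where values are continuous. That rate does not hold for Spint1 in the low sets, where most oocytes are at 0. Where all other oocytes of a set are at 0, any count is flagged. Mfap1a stood at 48.4 CPM in oocyte Old_WT_365_2 of old WT, above the other 4 of its set. Mfap1b stood at 95.2 CPM in T2134 of young Tet2KO. Spint1 stood at 0.765 CPM in Young_Tet1-/-_201_3 of young Tet1KO, on 3 counts, and at 0.463 CPM in Old_Tet1-/-_209_7 of old Tet1KO, on 2 counts, where the other 4 oocytes of set Old_Tet1-/-_209 held none.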

How the results depend on the processing

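None of the 4 genes was called in 112 fits under alternatives (adjusted p 0.239 to 1, edgeR, DESeq2 or limma). The number of genes called changed more, and the cause was not tested. In young Tet1KO it was 3, against 30 with DESeq2, 0 with limma (636 at an unadjusted p under 0.05), 252 with no filter on low counts and 3 to 8 when a set was left out. In young Tet2KO it was 2, against 16, 0 (1088 at an unadjusted p under 0.05), 226 and 2 to 3. In old Tet2KO it was 2, against 11, 1, 243 and 0 to 1, where 0 came without Old_WT_247 (469 at an unadjusted p under 0.05).

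Some uncalled log2 changes turned sign. They were 0.0172 for Spint1 in young Tet1KO with DESeq2, 0.32 for Gm14085 in young Tet2KO without the naming series term and 0.0023 for Mfap1b in old Tet2KO with limma. Leaving out sets gave, in young Tet1KO, -0.18 to 0.0454 for Mfap1a, -0.16 to 0.0683 for Mfap1b, -0.27 to 0.49 for Spint1 and -0.72 to 0.0375 for Gm14085. It gave -0.34 to 0.0945 for Gm14085 in young Tet2KO, and in old Tet2KO -0.10 to 0.31 for Mfap1a, -0.45 to 0.40 for Mfap1b and -0.16 to 0.93 for Spint1.

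With set means removed, r was 0.43 (Mfap1a and Mfap1b), 0.0192 (Mfap1a and Spint1), -0.16 (Mfap1a and Gm14085), 0.0239 (Mfap1b and Spint1), 0.11 (Mfap1b and Gm14085) and -0.0148 (Spint1 and Gm14085). In the T and S oocytes alone it was 0.45, 0.18, 0.15, 0.54, 0.37 and 0.0859 in that order, and in the numbered oocytes alone 0.79 for Mfap1a and Spint1. Segment genes like Mfap1b numbered 32, against 10 at the stricter limit of 0.7 and 0 with set means removed. With set means removed only 1 of 14417 genes over all was like Mfap1b. A boundary midway between the lowest and highest level put 53 oocytes high in Mfap1a and 51 in Spint1, and lowered the oocytes in one state from 91 to 78 for Mfap1b and Spint1. Leaving out 3 oocytes of Young_WT__246 rich in ribosomal protein transcripts was an alternative chosen after seeing the data. Of the oocytes that remained, 72 were high in Spint1, because its boundary moved. Of these same remaining oocytes, 86 were in one state for Mfap1b and Spint1. No paired analysis was possible because the groups share no set numbers. Depth limits Spint1, at 3 counts or fewer per oocyte in the low sets.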
